A study of Mus musculus with 12 samples.

Results

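Trex2 encodes a DNA exonuclease that removes nucleotides from 3′ ends. It was measured here by 1 of the 9558 probes of a spotted cDNA array, and it is 1 of 6774 genes that the probes name. The gene was chosen on its log2 ratio in low calcium, which earlier processing of these arrays had placed among the lowest, so its low calcium values are described below without a test. All 12 arrays of the study were used, and Trex2 had a value on 9 of them.

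Mouse Trex2 lies on chromosome X (GRCm38.p6, 73433705 to 73435343, gene ID 24102), and its product belongs to the same exonuclease family as that of Trex1. Trex1 is made in many tissues and clears DNA from the cytosol, while Trex2 is known chiefly from keratinocytes of stratified epithelium. In mouse skin its loss is known to raise the sensitivity of the epidermis to ultraviolet damage. Keratinocytes leave the basal layer and differentiate when calcium rises, and p63 is the transcription factor that maintains the basal state of this tissue.

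The cells were primary skin keratinocytes of C57Bl/6NCr mice infected with an adenovirus carrying either deltaNp63alpha, a short p63 isoform missing its N-terminal transactivation domain, or else beta-galactosidase as the control. They were kept in 0.05 mM calcium (low calcium) or raised to 0.12 mM (high calcium) for the last 24 h, and RNA was taken 41 h after infection. Every array compared the RNAs of both viruses at 1 calcium level in Cy3 and Cy5, and each level had 3 repeats hybridised in both dye orientations. The arrays are technical repeats per the labels, so p-values measure only the spread between them, and no source used here gives the age or number of the mice.

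A forward array carried deltaNp63alpha in Cy5 and a reversed array carried it in Cy3. The values are log2 ratios centred on 0 for each array. Taking Cy5 as the numerator, the sign of reversed arrays was turned, and a negative value means less RNA with deltaNp63alpha. The sources do not state the order of the ratio, so this direction is only likely. Its basis is that Cy5 over Cy3 is the customary order and that the title of the series names a gene as negatively regulated. With the opposite order every sign below would turn. As deposited, the forward and reversed arrays of a repeat correlated above 0 over all rows (r from 0.12 to 0.712 in the 6 repeats, across genes), so a part of the values did not turn with the dye. A row here is a named gene, with its probes averaged, or a single unnamed probe. The single Trp63 probe, which reads the gene that was overexpressed, was not higher with deltaNp63alpha. Its pair values were -0.78 and 0.45 in low calcium and -0.59 and -0.51 in high calcium (limma adjusted p = 0.919 and 0.446, n = 2 pairs each), and whether it detects the transgene is not known here. The arrays carried values for 3366 to 9096 probes: at least 7869 in repeat 1 of low calcium and in repeats 1 and 2 of high calcium, and at most 6974 in the other, sparser repeats.

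The sequence just upstream of Trex2 is shown because the agent under study is a transcription factor. It covers the 250 bases before the RefSeq start on the minus strand (GRCm38.p6, chrX:73435344-73435593), 5′ to 3′, with the only motif found in capitals.
Trex2 promoter: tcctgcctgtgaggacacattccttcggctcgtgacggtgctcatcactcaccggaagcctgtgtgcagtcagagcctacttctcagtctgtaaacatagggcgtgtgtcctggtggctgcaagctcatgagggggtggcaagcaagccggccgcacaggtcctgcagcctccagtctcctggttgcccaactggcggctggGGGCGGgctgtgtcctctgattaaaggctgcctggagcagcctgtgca
The capitals mark a GC box (GGGCGG, searched on both strands) from 48 to 43 bases before the start. This motif is present in 32.7% of 32851 RefSeq promoter windows of the same length. No match to the half-site of the p53 family, which p63 shares, was found in these 250 bases, and 7.13% of all windows hold one. TATAAA (12.4% of windows), CCAAT (33.8%), the AP-1 site TGANTCA (6.75%), the AP-2 site GCCNNNGGC (13.7%) and the grainyhead site AACCNGTT (1.79%) were not found either. The window is 61.2% G and C, against a median of 52.4% over all windows, and holds 9 CG dinucleotides against a median of 6. These are matches of letters only, and sites outside the window were not searched.

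In low calcium Trex2 was lower with deltaNp63alpha on every array that measured it. On the forward arrays its log2 ratio was -0.91 in repeat 1, -0.89 in repeat 2 and -2.60 in repeat 3. On the reversed arrays, after turning, it was -0.66 in repeat 1 and -1.85 in repeat 3, and repeat 2 had no value. All 5 arrays therefore lay below 0, and the deposited sign flipped with the dye in both repeats that had a value in each orientation. The pair values, which average the forward and the turned reversed array, were -0.78 in repeat 1 and -2.23 in repeat 3, or 1.72-fold and 4.68-fold lower. Their mean was -1.50 ± 1.02 (SD, n = 2 pairs), 2.84-fold lower. The 2 pairs differed by more than the smaller of them, and repeat 3 carried most of the mean.

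**Figure D1:**
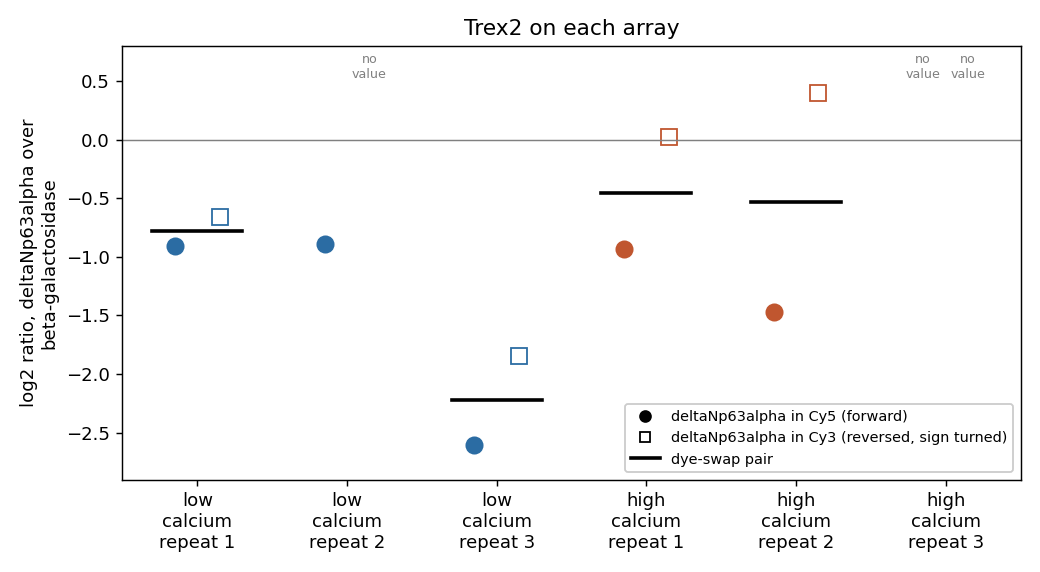
Trex2 log2 ratio of deltaNp63alpha over beta-galactosidase (vertical axis) on each array, by calcium level and repeat; circles are forward arrays, open squares are reversed arrays after turning the sign, and bars are dye-swap pair values. All 5 low calcium values lie below 0, while in high calcium the forward arrays read -0.93 and -1.47 and the reversed arrays 0.02 and 0.40.

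By pair value Trex2 stood near the bottom of all rows in low calcium repeats 1 and 3, and repeat 2 gave it no pair value. In repeat 1, 2.76% of 7893 rows with a pair value were lower. In repeat 3 only 3 of 2894 rows were lower, namely Sprr1a (-2.82) and Flg (-2.52), both of the cornified or granular layer, and the proliferin gene Prl2c5 (-2.29). Array by array, between 1.25% (repeat 3, reversed) and 15.2% (repeat 2, forward) of rows read lower than Trex2. Over the level the same 3 genes were the only ones of 4646 tested rows with a mean below that of Trex2. These means cover unlike sets of pairs: that of Trex2 rests on repeats 1 and 3, those of Sprr1a and Flg on all 3 repeats. With the single forward value of repeat 2 kept, the Trex2 mean was -1.30. Sh3bp5l, with values in all 3 repeats and a mean of -1.37, would then also lie lower. Repeat 3 was sparse, so its ranking covers fewer rows than that of repeat 1.

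In high calcium Trex2 did not pass the test without a block, and its orientations disagreed. The forward arrays read -0.93 in repeat 1 and -1.47 in repeat 2. The reversed arrays read 0.02 and 0.40 after turning, so those 2 arrays were not below 0. Repeat 3, the sparse repeat, had no value in either orientation. The pair values were -0.45 and -0.54, or 1.37-fold and 1.45-fold lower, and the level mean was -0.49 ± 0.28 (SE, n = 2 pairs; limma adjusted p = 0.587). Its 95% interval ran from -1.10 to 0.11. Low calcium repeat 1 (-0.78) lies within that interval, and low calcium repeat 3 (-2.23) and the low calcium mean (-1.50) lie below it. This is no test of a difference between the levels. The low calcium values chose the gene, and their own spread is left out of this comparison with the interval. The width comes largely from the gap between the low calcium pairs, the values that chose the gene, because both levels share 1 estimate of the spread; the high calcium pairs themselves had an SD of 0.057. With each level fitted alone the SE was 0.16 (unadjusted p = 0.0109, limma adjusted p = 0.139), so the interval is no measure of the high calcium spread alone. With the range of experiment IDs as a block the value was -1.22 and passed (limma adjusted p = 0.0345). That block draws on the same low calcium gap, since both high calcium pairs lie in 1 range. By array, Trex2 stood low on the forward arrays, where 5.47% and 6.18% of rows read lower in repeats 1 and 2. On the reversed arrays 51.7% and 83.5% of rows read lower, so it stood mid-range on one and in the upper part on the other. Of 7263 rows tested, 6.64% had a lower mean than Trex2. For comparison, 0.84% of these rows were called lower and 0.551% higher at an adjusted p under 0.05. In low calcium 0.387% of 4646 rows were called lower and 0.0215% higher. An unadjusted p under 0.05 was reached by 9.45% of rows in low calcium and 11.6% in high calcium.

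The size of the disagreement can be set beside that of other rows. In high calcium repeat 2 the Trex2 arrays differed by 1.87 on the log2 scale after turning, more than in 92.7% of rows, whose median gap was 0.48. In repeat 1 they differed by 0.95, more than in 84.6% of rows (median 0.46). In low calcium the gaps of Trex2 were 0.25 in repeat 1 and 0.76 in repeat 3, below the medians of 0.54 and 0.91. The low calcium values chose the gene, which favours low readings in both orientations there. The contrast of gaps between the levels is therefore a description only. The part of the Trex2 value shared by both orientations, which does not turn with the dye, was -0.13 and -0.38 in low calcium and -0.48 and -0.94 in high calcium. In high calcium repeat 2 it exceeded the part that turns, and in repeat 1 the 2 parts were of like size. Were the deposited signs already turned, these shared values would be the effect of deltaNp63alpha: Trex2 would stand at -0.25 in low calcium. In high calcium it would stand at -0.71 (limma adjusted p = 0.197), and the order of the levels would be reversed.

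**Figure D2:**
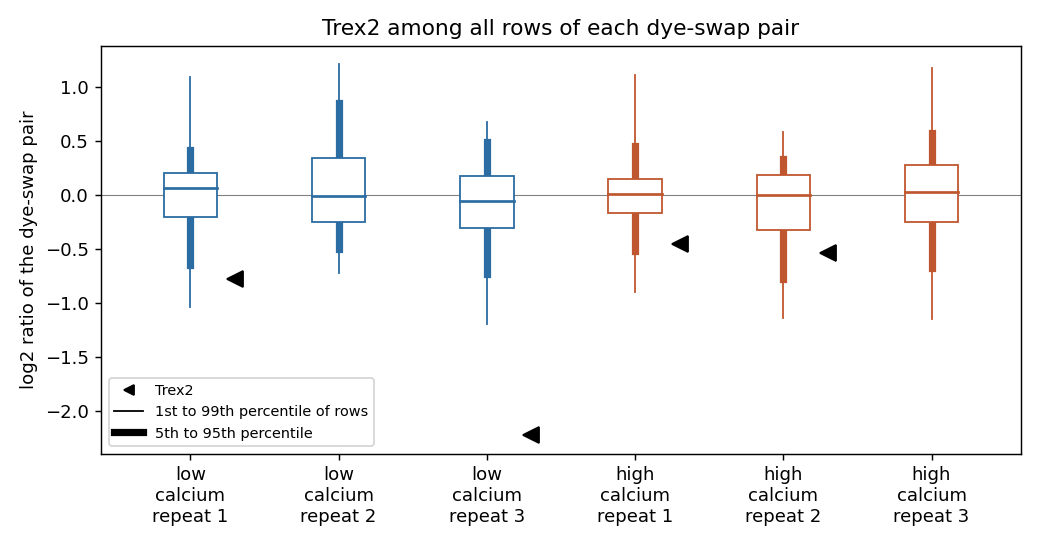
Distribution of the dye-swap pair log2 ratios of all rows (vertical axis) in each repeat, as box (quartiles and median), thick line (5th to 95th percentile) and thin line (1st to 99th), with Trex2 as a triangle. Trex2 lies below the thin line in low calcium repeat 3 at -2.23, and within the thick line in the high calcium pairs at -0.45 and -0.54.

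The high minus low difference of Trex2 was 1.01 on the log2 scale. It was not tested, since the low calcium values had served to choose the gene. Most of it came from low calcium repeat 3: without that repeat the difference was 0.29, from -0.78 in low calcium repeat 1 against -0.45 and -0.54 in high calcium. The experiment IDs in the labels fall into a lower range, which holds repeats 1 and 2 of high calcium and repeat 1 of low calcium, and a higher range, which holds the other 3 repeats. The value of 0.29 is thus also the difference within the lower range, and in the higher range Trex2 had no high calcium value. The calcium levels never met on an array, so whether calcium itself moved Trex2 was not measured.

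Several genes followed Trex2 closely. Likeness was measured as the root mean square difference of pair values over the 4 pairs in which Trex2 had one, among 2366 other rows with a value in all 4. The median row differed by 1.25, and 16.2% of these rows were below 0 in all 4 pairs. Low calcium repeat 3, where Trex2 read -2.23, weighs most in this measure. A row near 0 in all 4 pairs therefore also differs widely from Trex2. The nearest was Sh3bp5l, an SH3-binding domain protein gene, at 0.22, with pair values of -0.51 and -2.12 in low calcium repeats 1 and 3 and -0.36 and -0.22 in high calcium repeats 1 and 2. Sh3bp5l also resembled Trex2 by array in high calcium, where its forward arrays read -0.81 and -0.80 and its turned reversed arrays 0.08 and 0.37. Next came Lce1l, a late cornified envelope gene, at 0.30, with -0.89 and -1.74 in low calcium and -0.17 and -0.73 in high calcium.

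The other 6 named genes nearest to Trex2 were Nup88, a nuclear pore component (root mean square difference 0.37), Mapkapk2, a kinase downstream of p38 (0.43), Flg, the filaggrin gene (0.45), the membrane protein gene Flrt3 (0.53), the transcription factor gene Srf (0.54) and Dusp7, a phosphatase of MAP kinases (0.54). Of these 4 pairs, all 8 genes were lowest in low calcium repeat 3, where they ranged from -2.52 in Flg to -1.24 in Srf. The choice favours this, since the genes were picked for likeness to Trex2 over the same pairs. For 4 of the 8 genes the low calcium repeat 3 value came mostly from 1 orientation. Mapkapk2 read -0.46 forward and -2.44 reversed there, and Dusp7 -0.03 and -2.45. Flrt3 read -2.55 forward and -0.02 reversed, and Srf -2.05 and -0.42. Trex2 (-2.60 and -1.85), Sh3bp5l (-1.79 and -2.45), Lce1l (-1.76 and -1.73), Nup88 (-1.98 and -1.72) and Flg (-2.74 and -2.29) were low in both orientations. Of the 8, Sh3bp5l alone was called lower in low calcium and Flg alone in high calcium (limma adjusted p = 0.0277 and 0.0351). Of all tested rows 0.387% and 0.84% were called lower, and the 8 were picked on these same values, so their calls are no separate evidence. Flg differed from Trex2 on the reversed arrays of high calcium, where it read -1.04 and -1.62. The 4 pairs are few, so likeness over them is a description.

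**Figure D3:**
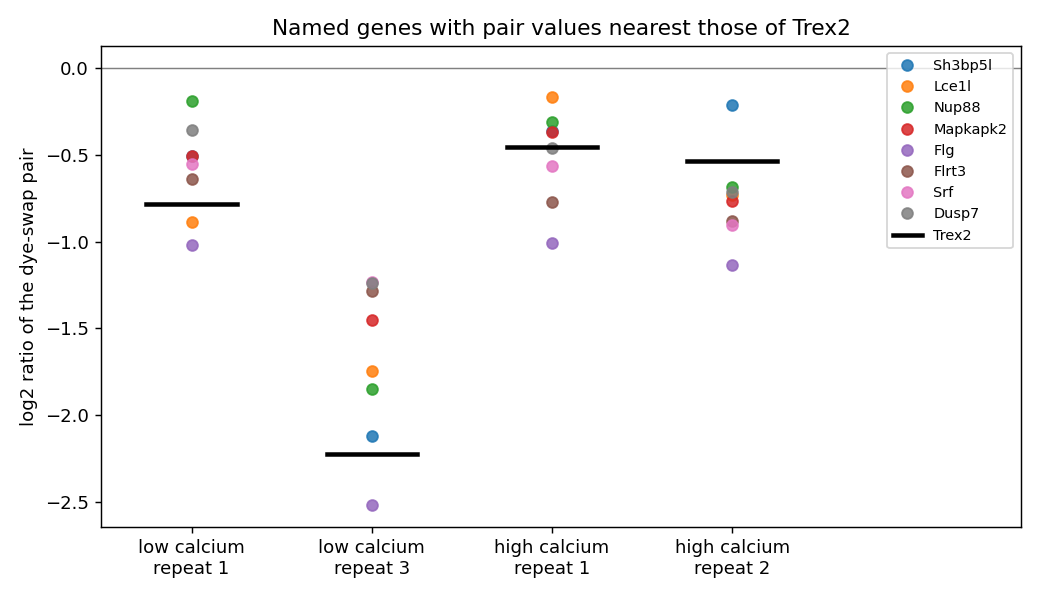
Pair log2 ratios (vertical axis) of the 8 named genes nearest to Trex2 in the 4 pairs that measured Trex2, with Trex2 as black bars. All 8 genes lie below 0 in all 4 pairs and are lowest in low calcium repeat 3, which their choice by likeness to Trex2 over these pairs favours.

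Trex1, the paralog, had pair values of 0.21, 0.41 and -0.10 in low calcium and 0.51, 0.24 and 0.24 in high calcium, positive in 5 of 6 pairs. It passed at neither level (0.17 ± 0.15 and 0.33 ± 0.15, SE, n = 3 pairs each; limma adjusted p = 0.801 and 0.419). The list of DNA exonucleases and other DNA-degrading nucleases also held DNA polymerase genes (Pole, Pold1, Polg) and RNA exonuclease genes (Rexo2, Rexo4, Eri3). Of this list, 0 of 11 tested in low calcium and 0 of 15 in high calcium were called by limma, and 1 and 2 had an unadjusted p under 0.05. With 0.387% and 0.84% of all rows called lower, and 9.45% and 11.6% at the unadjusted threshold, these counts are near the background and say nothing particular of nucleases. Their medians were 0.06 and 0.16, against 0.02 and 0.01 for all tested rows, and no nuclease was as low as Trex2 in low calcium. The smallest p in low calcium was that of Dnase1, a secreted endonuclease, at 0.77 (limma adjusted p = 0.194, n = 2 pairs). In high calcium Rexo4, of the RNA exonuclease family, had the smallest p at -0.53 (limma adjusted p = 0.276, n = 2 pairs), and it alone lay below Trex2.

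DNA repair and DNA sensing genes gave counts of adjusted calls near those same shares of all rows, so these counts are no result about the genes. In excision repair and damage-tolerant synthesis 0 of 13 in low calcium and 0 of 18 in high calcium were called by limma (0 and 1 at an unadjusted p under 0.05), with medians of 0.06 and 0.04. The smallest p-values there were those of Mutyh in low calcium, a glycosylase that acts on oxidised bases (0.36; limma adjusted p = 0.563), and Rad23b in high calcium, a partner of the damage sensor Xpc (-0.48; limma adjusted p = 0.326). In double-strand break signalling and repair it called 0 of 6 and 0 of 10 (2 and 0 unadjusted), with medians of 0.21 and -0.01. Rad17, a checkpoint clamp loader, was at -0.59 in low calcium (limma adjusted p = 0.323) and Nbn, of the Mre11 complex, at -0.41 in high calcium (limma adjusted p = 0.463). In cytosolic DNA sensing and the interferon response it called 0 of 11 and 0 of 16 (1 and 1 unadjusted), with medians of 0.04 and 0.15. Ifit1 stood at 0.61 in low calcium (limma adjusted p = 0.251) and the interferon regulatory factor gene Irf7 at 0.53 in high calcium (limma adjusted p = 0.291).

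Genes of the suprabasal and cornified layers were called lower at both levels in part. In high calcium 8 of 15 tested were called lower and none was called higher, against 0.84% of all rows called lower, and the list's median was -1.33. They were Flg (-1.93), the shedding proteases Klk7 (-1.73) and Klk5 (-1.69), the envelope precursor Sprr1a (-1.63), the suprabasal keratin Krt10 (-1.57), the interleukin-1 family antagonist Il1f5 (-1.45), Crct1 (-1.43) and the tight junction gene Cldn1 (-1.33). All 8 lay below Trex2 at that level. In low calcium 2 of 11 were called lower, against 0.387% of all rows. These were Sprr1a (-2.15) and the retinoic acid binding protein gene Crabp2 (-1.18), and the list's median was 0.00. The list was drawn up with results of these data known, so its counts are not independent evidence of a direction. The count of 8 was 0 on forward arrays alone, on reversed arrays alone, with the deposited signs kept, with pairs of 1 array kept and with a trended and robust variance. It was 1 of 4 tested without high calcium repeat 1, and likewise without repeat 2. The low calcium count of 2 was 0 with the signs kept, with pairs of 1 array kept, with the trended and robust variance and over complete rows. It was 1 on forward arrays alone, with arrays as replicates, over rows with 2 pairs at both levels and without low calcium repeat 1. It was 4 with each level fitted alone and without high calcium repeat 1 or 2.

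The values of these 8 genes by array are a description, since the same arrays served to call them and low values in both orientations are built in. In high calcium repeat 1 they ranged from -1.62 to -0.92 on the forward array, where Trex2 read -0.93, and from -1.63 to -0.78 on the reversed array, where it read 0.02. In repeat 2 they ranged from -1.79 to -0.65 forward, with Trex2 at -1.47, and from -2.50 to -1.27 reversed, with Trex2 at 0.40. On both forward arrays Trex2 thus lay within their range, and on both reversed arrays it lay above all 8. The 7 tested genes of the list that were not called ranged from -0.34 to 0.57 forward and from -0.47 to 0.80 reversed in repeat 1, and from -1.01 to 0.51 forward and from -0.67 to 0.36 reversed in repeat 2. Trex2 lay below all 7 on both forward arrays, within their range on the reversed array of repeat 1 and above all 7 on that of repeat 2. For 5 of the 8 called genes low calcium gave a single pair value, from repeat 1 (-1.52 to -0.93), so they were not tested at that level.

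**Figure D4:**
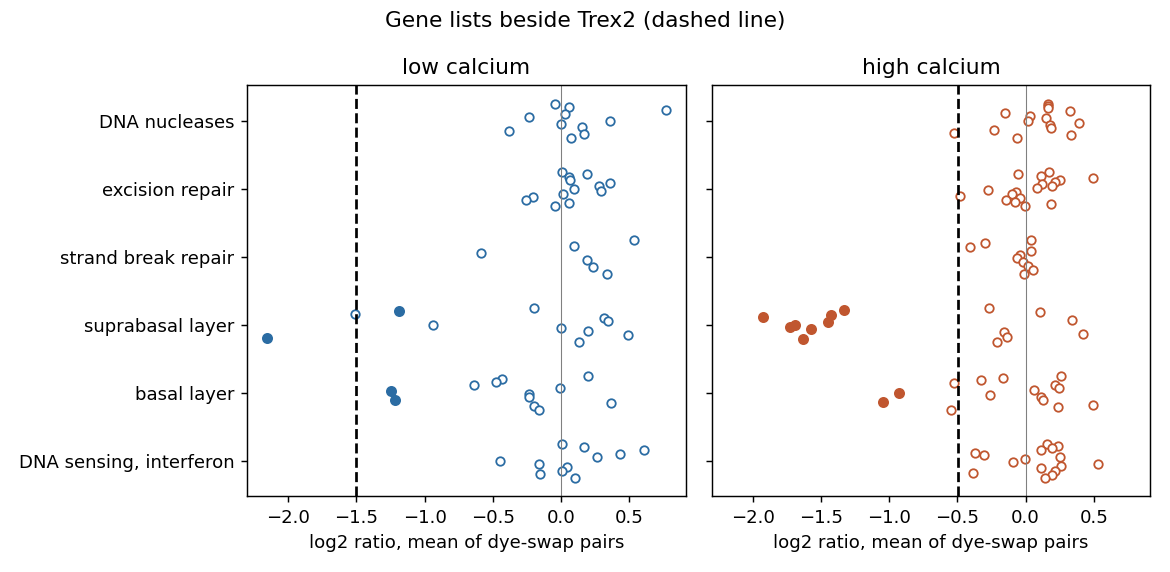
Mean pair log2 ratio (horizontal axis) of each tested gene of 6 lists in low calcium (left) and high calcium (right); filled points passed limma's adjusted p of 0.05, open points did not, and the dashed line is Trex2 (-1.50 and -0.49). Nucleases and repair genes lie between -0.59 and 0.77, and the 8 filled suprabasal points in high calcium lie left of Trex2.

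Among basal layer genes 2 of 12 were called lower in low calcium and 2 of 15 in high calcium, against 0.387% and 0.84% of all rows. At both levels these were the integrin gene Itgb1 (-1.25 and -0.93) and the proteoglycan gene Sdc1 (-1.22 and -1.04). An unadjusted limma p under 0.05 was reached by 4 of the 12 and 4 of the 15, against 9.45% and 11.6% of all rows. This list too was drawn up with results of these data known, so its counts are not independent evidence of a direction. The list's medians were -0.24 and 0.06, and none of its genes lay below Trex2 in low calcium, against 4 in high calcium. Fibroblasts, melanocytes, immune cells and endothelium are other cells of skin that such cultures could hold. None of 13 markers of these cells tested was called in low calcium or of 17 in high calcium (limma; 1 and 0 at an unadjusted p under 0.05). Of all rows 0.387% and 0.84% were called lower, and 9.45% and 11.6% passed the unadjusted threshold. At this number of markers the counts are thus near the background and say nothing particular of these cells. The marker means lay between -0.18 and 0.38 at the low level and between -0.35 and 0.33 at the high level. Ratios give no level, so the keratinocyte identity of the cells could not be checked, and fewer cells that make Trex2 cannot be told apart from less Trex2 RNA per cell.

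The neighbours of Trex2 on chromosome X had mean values near 0. Of the 10 nearest annotated protein-coding genes on each side, 9 were on the arrays. None of 4 tested in low calcium (0.06 to 0.25) or of 8 in high calcium (-0.15 to 0.14) passed limma's test or reached an unadjusted p under 0.05, which is near the background at this number of genes (0.387% and 0.84% of all rows called lower, 9.45% and 11.6% unadjusted). Haus7, a subunit of the augmin complex, is the next gene and begins 1972 bases beyond Trex2. It had 1 low calcium pair at 0.20 and high calcium pairs at -0.13 and 0.05 (mean -0.04; limma adjusted p = 0.951). On the other side the adjacent gene, Zfp92, was not on the arrays. The next gene there, the zinc finger gene Zfp275, lies 74625 bases away. Its mean was 0.25 in low calcium (pairs at -0.51, 0.76 and 0.51) and 0.03 in high calcium. Beyond Haus7, the matrix proteoglycan gene Bgn was at -0.21 from 1 low calcium pair and at -0.01 in high calcium.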

How the data were processed

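The deposited values are log2 dye ratios of 12 two-colour cDNA arrays of mouse keratinocyte RNA, taken as log2 from their range (-7.88 to 4.60) since the base is not stated. Labelling used a Genisphere kit, per the labels' protocols. Not given in the sources used here: scanner, background correction, normalisation and filters. The array medians (-0.0005 to 0.0005) show that the deposited values were centred. Of 9558 probes, 7457 had 1 gene symbol in the platform annotation, 481 several and 1620 none listed. Of the single symbols 7368 were updated by gene ID (GRCm38.p6). Probes of a gene were averaged, giving 8875 rows.

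Arrays were centred on their medians. A pair value was forward minus reversed divided by 2, and was missing if either array lacked one. The 3 + 3 pairs were fitted with limma 3.58.1 (R 4.3.3; lmFit, eBayes), over rows with at least 2 pairs at a level, with Benjamini-Hochberg adjustment over all rows and a threshold of 0.05. The procedure was run on simulated data with a dye bias held equal in every pair, which checks the code and not the Trex2 values. Trex2 and all lists were chosen with earlier results of these data known. Named genes were Trex2, Trex1, Trp63, the 8 genes nearest to Trex2, up to 3 neighbours on each side, and called list members or otherwise those of smallest p; some of the latter are left out. Sequences are from RefSeq. Alternatives covered sign, centring, single arrays, replication unit, variance prior, blocks, orientation, filters, probes and each left-out pair.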

Additional observations from a re-analysis of the deposited data

How the results depend on the processing

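Trex2 in low calcium stayed below 0 under all 18 alternatives that gave it a value. Many of these leave the mean unchanged at -1.50, and the low calcium values chose the gene, so that count is no test. With the deposited signs kept the low calcium value was -0.25, and with a pair left out it ran from -2.23 to -0.78. In high calcium Trex2 was below 0 under 17 of 18, many of which likewise left its mean at -0.49. On reversed arrays alone it was 0.21, and it passed under 1 of the 16 alternatives with a test (limma adjusted p from 0.0345 to 0.874): with the range of experiment IDs as a block it was -1.22 (limma adjusted p = 0.0345). Both high calcium pairs of Trex2 lie in 1 range, so by construction that block moves their mean along with the difference between low calcium repeats 1 and 3. The high minus low difference was -0.45 with the deposited signs kept. Repeat numbers did not pair the calcium levels (r of deviations -0.026, -0.108 and 0.204 for repeats 1 to 3), and with the replicate block Trex2 was -1.29 in low and -0.96 in high calcium (limma adjusted p = 0.0851). No value of Trex2 came from rows complete on all 12 arrays.

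The count of rows called in low calcium (19) was 763 with the deposited signs kept, 330 on reversed and 33 on forward arrays alone, 59 with the replicate block, 49 with each level fitted alone, 47 with the ID block, 4 over complete rows, and 0 with 1 array kept (512 at an unadjusted p under 0.05) or a trended and robust variance (401 unadjusted). The high calcium count (101) was 236 with each level alone, 57 with arrays as replicates, 43 over rows with 2 pairs at both levels, 14 over complete rows, 1 on reversed arrays alone, and 0 on forward arrays alone, with kept signs, with 1 array kept or with the trended and robust variance (1883, 1270, 555 and 585 unadjusted). With a pair left out the counts ran from 6 to 51 in low and from 33 to 151 in high calcium. The causes were not tested. The list counts under these settings were added after the data were seen. The number of arrays limits the precision; no spot intensities were used here.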
